A study of Mus musculus with 5 samples.

Results

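The genes of triglyceride assembly and lipid uptake examined here are 10 named genes, matched by symbol in each of the 5 count tables, out of 24808 gene symbols in all. They are Gpam, Agpat2, Agpat3, Lpin1, Lpin2, Dgat1, Dgat2 and Mogat1, whose enzymes join fatty acids to a glycerol backbone, and Cd36 and Vldlr, whose products bring lipid into cells. Liver RNA came from C57BL/6 mice, 16 weeks old per the labels, in 2 groups. The CCl4+givinostat group (2 libraries) had received the hepatotoxin carbon tetrachloride together with givinostat, an inhibitor of histone deacetylases. The CCl4 group (3 libraries) had received carbon tetrachloride without givinostat, so every mouse had received the hepatotoxin, and untreated liver was not analysed here. The sources used here do not give the dose, its timing, the sex of the mice or their feeding. Per the series title, the study asked about fibrosis of the liver and its stellate cells.

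Triglyceride is built in the endoplasmic reticulum by adding fatty acyl chains to glycerol-3-phosphate. Glycerol-3-phosphate acyltransferases make lysophosphatidic acid, AGPAT enzymes make phosphatidic acid, lipins remove the phosphate to leave diacylglycerol, and DGAT enzymes add the last chain. A side route, through monoacylglycerol acyltransferase, reaches diacylglycerol from monoacylglycerol. Hepatocytes use the product for very low density lipoprotein (VLDL) and for lipid droplets, and take up fatty acids partly through the scavenger receptor CD36 and lipoproteins through cell surface receptors, of which the VLDL receptor is an example.

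Cd36, Vldlr, Dgat1 and Agpat3 were the tested members with every CCl4+givinostat library above every CCl4 library. The sequence just before the transcription start is shown for the 3 of these that a RefSeq promoter table (GRCm38.p6) holds, to set side by side genes that lay on the same side. The lipin pair Lpin1 and Lpin2 follows, whose fitted differences had opposite signs with all libraries. Neither was called there, and that of Lpin2 took either sign with single libraries left out. Each run is 250 bases, ends at the base before the annotated start and is written 5′ to 3′ on the gene's strand. Capitals mark the nuclear receptor half-site AGGTCA, on either strand, and the E-box CACGTG.
Cd36, chr5:17835897-17836146, minus strand: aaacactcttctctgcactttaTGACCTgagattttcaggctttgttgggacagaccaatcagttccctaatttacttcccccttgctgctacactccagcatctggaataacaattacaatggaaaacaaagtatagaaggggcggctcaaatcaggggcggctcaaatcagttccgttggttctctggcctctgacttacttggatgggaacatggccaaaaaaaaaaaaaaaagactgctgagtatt
Vldlr, chr19:27216234-27216483, plus strand: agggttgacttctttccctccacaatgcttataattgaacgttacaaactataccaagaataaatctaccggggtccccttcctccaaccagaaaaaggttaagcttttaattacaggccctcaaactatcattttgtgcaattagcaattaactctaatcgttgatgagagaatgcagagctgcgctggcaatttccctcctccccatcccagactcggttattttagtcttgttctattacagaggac
Agpat3, chr10:78351701-78351950, minus strand: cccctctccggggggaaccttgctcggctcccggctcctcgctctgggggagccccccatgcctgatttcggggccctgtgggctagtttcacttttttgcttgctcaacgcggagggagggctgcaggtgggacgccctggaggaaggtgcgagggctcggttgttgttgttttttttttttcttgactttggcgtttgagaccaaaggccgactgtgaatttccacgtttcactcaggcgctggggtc
Lpin1, chr12:16610967-16611216, minus strand: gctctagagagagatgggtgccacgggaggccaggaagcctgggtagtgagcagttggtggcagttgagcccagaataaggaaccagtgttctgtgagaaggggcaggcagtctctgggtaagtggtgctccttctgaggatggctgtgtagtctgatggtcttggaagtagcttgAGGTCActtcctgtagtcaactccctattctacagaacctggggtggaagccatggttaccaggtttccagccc
Lpin2, chr17:71183282-71183531, plus strand: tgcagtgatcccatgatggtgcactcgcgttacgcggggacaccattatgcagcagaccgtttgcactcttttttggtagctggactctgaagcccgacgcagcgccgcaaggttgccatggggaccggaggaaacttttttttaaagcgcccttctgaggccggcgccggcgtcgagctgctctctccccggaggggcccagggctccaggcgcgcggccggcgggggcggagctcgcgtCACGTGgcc

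The table held 12 such stretches for 8 of the 10 genes, with no entry for Dgat1 or Dgat2. Lpin2 had 3 of them and Vldlr 2, of which the first listed is shown. The half-site AGGTCA began 228 bases before the start of Cd36 and 74 bases before that of Lpin1, and also stood in 1 of the Gpam stretches. In all, 3 of the 12 stretches held it, and 14.0% of 32851 promoter stretches of the same length did. The motif DR1, which is AGGTCA repeated in the same direction with any single base between the copies and is the form that PPAR receptors bind, contains the half-site and was in 0 of the 12 and in 0.0335% of all. The E-box stood 9 bases before the start of Lpin2 that is shown and in no other of the 12 stretches, against 6.02% of all. No half-site overlapped an E-box in these stretches. These matches describe letters in a short window, and the stretches of Cd36, Vldlr and Agpat3 shared none of the searched motifs. Those of Cd36, Agpat3 and Lpin2 precede RefSeq starts that lie inside the gene span of the GENCODE annotation used for the gene positions.

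Libraries held 18634801 to 21773867 counts, of which the hepatocyte gene Alb (albumin) held 7.01 to 8.14%. The first principal component of log2 CPM, which held 38.0% of the variance, split the CCl4 libraries. CCl4+givinostat replicates 1 and 2 scored -6.20 and -14.2 on it, against -34.1, 19.7 and 34.9 in CCl4 replicates 1, 2 and 3. The second component, which held 30.6%, separated the groups. In the same order its scores were 33.0 and 16.6 with CCl4+givinostat, against -28.4, -13.7 and -7.41 with CCl4. Calls that appeared without CCl4 replicate 1 are given beside the values from all libraries. Levels are given in CPM, counts brought to a common library size scaled by the trimmed mean of M values (TMM). Differences are log2 fold changes of CCl4+givinostat over CCl4 from edgeR's quasi-likelihood test, whose p-values were adjusted by the Benjamini-Hochberg method over 13590 genes. They measure the spread between these libraries, 1 of each mouse as the series design counts them.

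By edgeR's quasi-likelihood test, 0 of the 9 tested members passed an adjusted p of 0.05 in either direction, where 0.00736% of all tested genes were called higher and 0% lower. Mogat1 had too few counts to be tested. At an unadjusted p under 0.05, 3 members (Cd36, Dgat1 and Vldlr) lay higher with givinostat and 0 lower, against 3.52% and 3.93% of all tested genes. The groups did not overlap, with givinostat higher, for 4 of the 9, against 11.7% of all tested genes. DESeq2 called Cd36 higher and no member lower, against 0.508% and 0.581% of all genes. The fitted log2 fold change was above 0 for 8 of the 9 members, with a median of 0.27, against 46.2% of all tested genes and a median of -0.02. Without CCl4 replicate 1, edgeR called 3 members higher (Cd36, Dgat1 and Lpin2) and 0 lower, against 0.885% and 0.862% of all tested genes.

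**Figure D1:**
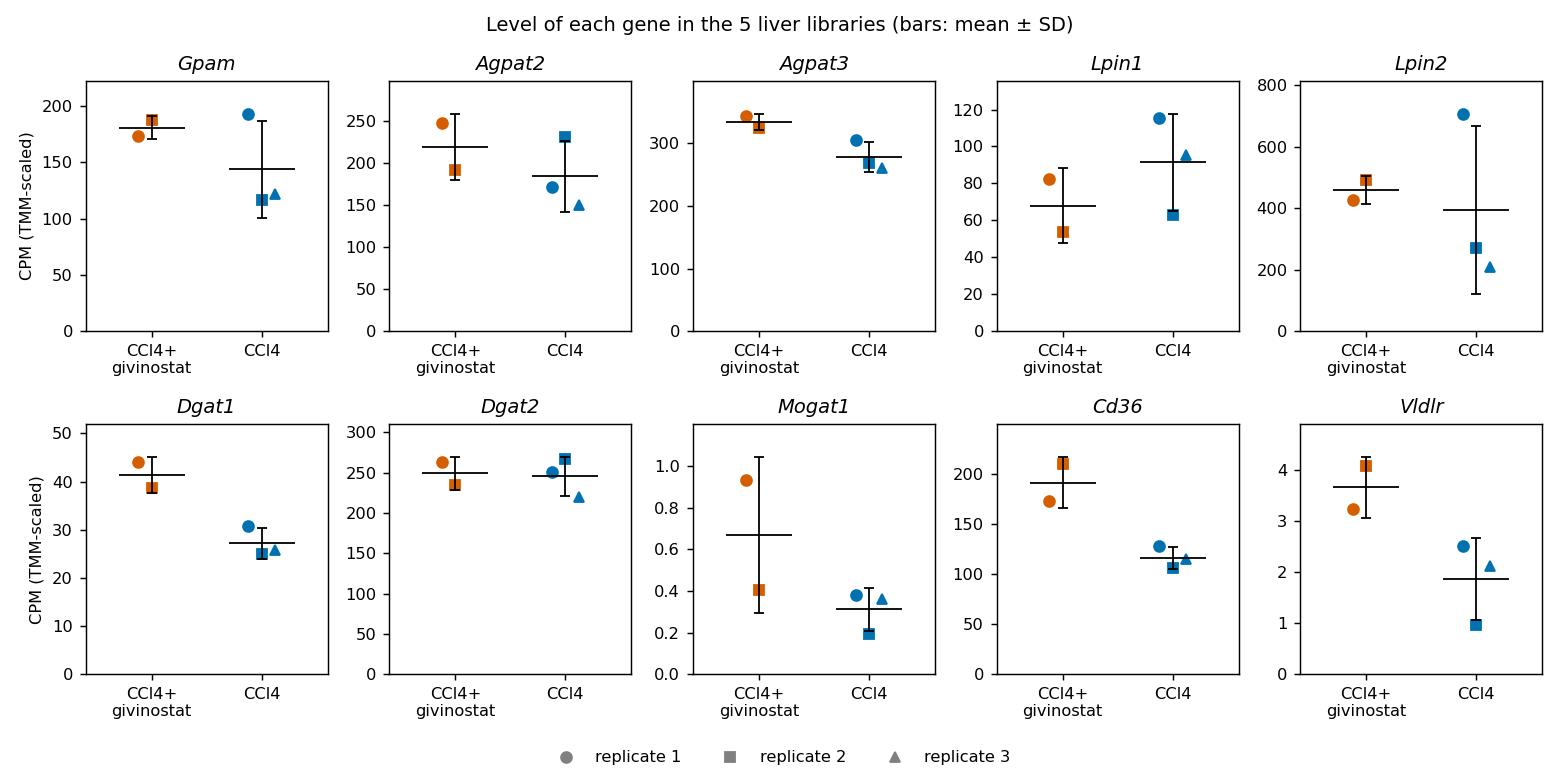
Each panel plots one gene's level in CPM (TMM-scaled, linear axis from 0) in the 2 CCl4+givinostat and 3 CCl4 libraries, with symbols for the replicate number, a line for the mean and bars for the SD. Cd36, Vldlr, Dgat1, Agpat3 and the barely detected Mogat1 have both CCl4+givinostat libraries above all CCl4 libraries, and CCl4 replicate 1 is the highest of the 5 for Gpam, Lpin1 and Lpin2.

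The uptake gene Cd36 had the smallest p of the members by both tests, though its call depended on the test. Cd36, the fatty acid translocase (chromosome 5, 17781690 to 17888801, minus strand, GRCm38), was at 173 and 210 CPM with CCl4+givinostat, against 128, 106 and 115 CPM with CCl4. The lowest CCl4+givinostat library thus lay above the highest CCl4 library, and the means were 191 ± 25.6 CPM (SD, n = 2) and 116 ± 11.2 CPM (SD, n = 3). The edgeR log2 fold change was 0.72 ± 0.16 (SE), or 1.64-fold, with a 95% interval of 0.36 to 1.07 on the log2 scale. Its edgeR adjusted p was 0.250, and DESeq2 gave 0.0162 over the same genes. Left out one at a time, the 5 libraries gave log2 fold changes of 0.57 to 0.85, and without CCl4 replicate 1 the value was 0.79 with an edgeR adjusted p of 0.0307.

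Vldlr, the VLDL receptor gene (chromosome 19, 27216484 to 27254231, plus strand, GRCm38), was a low-level transcript in these livers. It had 66 and 91 counts with CCl4+givinostat, against 53, 20 and 41 counts with CCl4, or 3.24 and 4.09 CPM against 2.51, 0.962 and 2.13 CPM. Both CCl4+givinostat libraries lay above all CCl4 libraries, among which replicate 2 was low. The ratio of pooled, depth-scaled counts was 1.98, with an exact 95% interval of 1.54 to 2.54 that covers counting error only. The model, which also carries the spread between libraries, gave a log2 fold change of 0.97 ± 0.41 (SE), at an adjusted p by edgeR of 0.654, with a 95% interval of 0.03 to 1.91. Without CCl4 replicate 2 it was 0.66, and without CCl4 replicate 1 it was 1.25.

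CD36 and the VLDL receptor are also made by macrophages, endothelium, fat and muscle cells, and in whole liver fewer cells of a type and less RNA per cell cannot be told apart. Over 18 macrophage markers, the summed level was 953 and 1042 CPM with CCl4+givinostat, against 796 to 1493 CPM with CCl4, and 14 of the 18 had a fitted value below 0. Over 14 endothelial markers it was 276 and 589 CPM with CCl4+givinostat, against 391 to 647 CPM with CCl4, with 13 of the 14 below 0. Of all tested genes, 46.2% had a fitted value above 0. The sums of both lists overlapped between the groups, and CCl4+givinostat replicate 1 was the lowest of all 5 libraries for the endothelial sum. The 9 adipocyte markers summed to 4.86 and 2.60 CPM with CCl4+givinostat, against 1.56 to 4.14 CPM with CCl4. Of their defining genes, leptin (Lep) was at 0 counts in every library. Adiponectin (Adipoq) had 0 and 4 counts with CCl4+givinostat, against 0 in all CCl4 libraries, and perilipin 1 (Plin1) had 3 and 2 counts with CCl4+givinostat, against 0 in all CCl4 libraries. Trarg1, listed as Tusc5, had 14 and 17 counts with CCl4+givinostat, against 13, 14 and 13 counts with CCl4. Like Plin1 it lay higher in CPM with no overlap. Cfd had 1 and 2 counts with CCl4+givinostat, against 2, 3 and 2 counts with CCl4, and lay lower in CPM with no overlap. Adrb3, Cidea, Retn and Slc7a10 overlapped between the groups. Of the adipocyte sum, Adrb3 alone held 3.39 and 1.08 CPM with CCl4+givinostat, against 0.474, 3.18 and 1.97 CPM with CCl4, so the sum largely followed that gene. Of all tested genes, 11.7% lay higher and 11.7% lower with no overlap. Plin1 and Cfd had too few counts to be tested, so these shares do not cover them. The 12 muscle markers summed to 1.97 and 1.89 CPM with CCl4+givinostat, against 1.42 to 1.93 CPM with CCl4, and Ckm, Myh1, Myh2 and Myh4 were at 0 counts in all 5. The part of these cells in the Cd36 and Vldlr values was not tested.

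At the last step, both libraries with givinostat were higher for Dgat1 and not for Dgat2. Dgat1 (chromosome 15, 76502015 to 76511953, minus strand, GRCm38) and Dgat2 (chromosome 7, 99153658 to 99182719, minus strand) encode structurally unrelated enzymes that catalyse the same reaction. Dgat1 was at 44.0 and 38.7 CPM with CCl4+givinostat, against 30.9, 25.0 and 25.7 CPM with CCl4, with no overlap. Its log2 fold change was 0.60 ± 0.16 (SE), at adjusted p-values of 0.387 by edgeR and 0.149 by DESeq2, with a 95% interval of 0.23 to 0.98. Without CCl4 replicate 1 it was 0.70, with an edgeR adjusted p of 0.0388, and it lay between 0.51 and 0.70 with each library left out.

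Dgat2 was at 263 and 235 CPM with CCl4+givinostat, against 250, 267 and 219 CPM with CCl4, and the groups overlapped fully. Its log2 fold change was 0.02 ± 0.15 (SE), with a 95% interval of -0.33 to 0.37, and it took either sign when single libraries were left out (-0.06 to 0.10). Within a library, the ratio of Dgat2 to Dgat1 counts was 5.98 and 6.06 with CCl4+givinostat, against 8.11, 10.7 and 8.52 with CCl4. This ratio needs no scaling between libraries, and its groups did not overlap. The difference in its log2 was -0.58, with an exact two-sided permutation p of 0.1 over the 10 assignments of 5 libraries, the smallest these assignments can give, and of 0.4 after adjustment over the 4 ratios compared. It stayed between -0.66 and -0.47 with each library left out. Per exon length (FPKM, CPM divided by kilobases of exon in GENCODE M21), Dgat1 made up 14.4 and 14.3% of the summed DGAT level with CCl4+givinostat, against 11.1, 8.64 and 10.6% with CCl4. Dgat2 was thus the larger part of the DGAT level in every library.

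**Figure D2:**
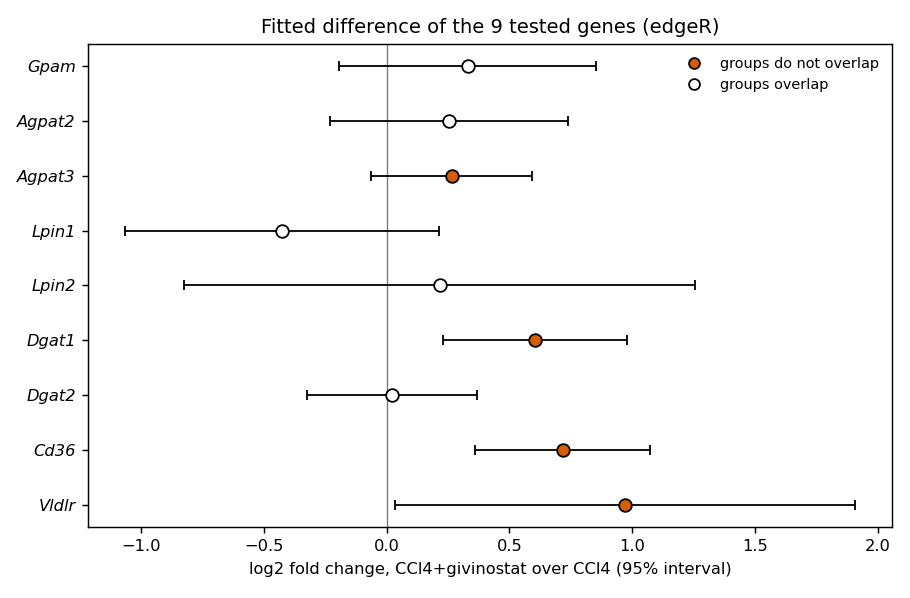
The horizontal axis gives the edgeR log2 fold change of CCl4+givinostat over CCl4 for the 9 tested genes, with 95% intervals from the fit as bars. Filled points are genes whose groups do not overlap. The intervals of Cd36, Dgat1 and Vldlr lie above 0 before any adjustment for the number of genes, and that of Dgat2 runs from -0.33 to 0.37.

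The lipins, which turn phosphatidic acid into diacylglycerol, varied more between CCl4 libraries than between the groups. Lpin2 (chromosome 17, 71182560 to 71249817, plus strand, GRCm38) was at 426 and 491 CPM with CCl4+givinostat, against 708, 269 and 208 CPM with CCl4. Both CCl4+givinostat libraries lay below CCl4 replicate 1 and above CCl4 replicates 2 and 3. The coefficient of variation over the CCl4 libraries was 69%, the highest of the 10 genes. With all libraries the log2 fold change was 0.22 ± 0.45 (SE), at an adjusted p by edgeR of 0.972. Without CCl4 replicate 1 it was 0.94 ± 0.17 (SE), at an adjusted p by edgeR of 0.0286, and without CCl4 replicate 3 it was -0.07, so the direction itself rested on single libraries.

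Lpin1 (chromosome 12, 16535669 to 16610966, minus strand, GRCm38), whose product also acts in the nucleus as a coregulator of fatty acid oxidation genes, was the one tested member with a fitted value below 0. It was at 82.5 and 53.7 CPM with CCl4+givinostat, against 115, 63.1 and 95.5 CPM with CCl4, and the groups overlapped. Its log2 fold change was -0.43 ± 0.28 (SE), at an adjusted p by edgeR of 0.843, and -0.77 to -0.15 with each library left out, the ends being without CCl4+givinostat replicate 1 and without CCl4+givinostat replicate 2. The ratio of Lpin2 to Lpin1 counts was 5.17 and 9.16 with CCl4+givinostat, against 6.13, 4.26 and 2.18 with CCl4. These overlapped, the difference in log2 ratio was 0.84, and the exact two-sided permutation p was 0.4 (0.533 adjusted over the 4 ratios). Leaving out either CCl4+givinostat replicate 2 or CCl4 replicate 3 gave a difference of 0.43. Leaving out CCl4+givinostat replicate 1 gave 1.25, and leaving out CCl4 replicate 1 gave 1.18. Per exon length, Lpin2 held 76.1 and 84.5% of the summed lipin level with CCl4+givinostat, against 80.9, 72.3 and 59.5% with CCl4.

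At the entry of the pathway, Gpam encodes the mitochondrial glycerol-3-phosphate acyltransferase (chromosome 19, 55067268 to 55127238, minus strand, GRCm38). Gpam was at 174 and 188 CPM with CCl4+givinostat, against 193, 116 and 122 CPM with CCl4. Here too CCl4 replicate 1 was above both CCl4+givinostat libraries and CCl4 replicates 2 and 3 were below them. The log2 fold change was 0.33 ± 0.23 (SE), at an adjusted p by edgeR of 0.856. It was 0.60 without CCl4 replicate 1, at an adjusted p by edgeR of 0.0565, and 0.20 without CCl4 replicate 2. The summed level of Gpam, Gpat2, Gpat3 and Gpat4, which share the step, was 76.4 and 79.6 FPKM with CCl4+givinostat, against 76.3, 52.1 and 46.5 FPKM with CCl4. Of this sum Gpam held 34.1 and 35.4% with CCl4+givinostat, against 38.0, 33.5 and 39.3% with CCl4. Gpat4, an endoplasmic reticulum isoenzyme, held 50.4 and 44.0% with CCl4+givinostat, against 39.5, 41.9 and 39.9% with CCl4.

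The second acylation was represented by Agpat2, the gene mutated in a human congenital lipodystrophy, and Agpat3. Agpat3 (chromosome 10, 78269178 to 78352489, minus strand, GRCm38) was at 344 and 325 CPM with CCl4+givinostat, against 305, 269 and 260 CPM with CCl4. The groups did not overlap but lay close, with a log2 fold change of 0.27 ± 0.14 (SE), at an adjusted p by edgeR of 0.793 and a 95% interval of -0.06 to 0.59. Agpat2 (chromosome 2, 26593057 to 26604417, minus strand) was at 247 and 191 CPM with CCl4+givinostat, against 171, 231 and 150 CPM with CCl4, and CCl4 replicate 2 lay between the CCl4+givinostat libraries. Its log2 fold change was 0.25 ± 0.21 (SE), at an adjusted p by edgeR of 0.880. It was 0.06 without CCl4+givinostat replicate 1, 0.13 without CCl4 replicate 3, 0.43 without CCl4+givinostat replicate 2 and 0.45 without CCl4 replicate 2. The ratio of Agpat2 to Agpat3 counts was 0.719 and 0.589 with CCl4+givinostat, against 0.560, 0.859 and 0.575 with CCl4, and the exact two-sided permutation p of its difference was 1, as was its value adjusted over the 4 ratios. In the annotation, 3.00% of the exonic bases of Agpat2 overlap Egfl7 on the opposite strand, and strand use in counting is not given in the sources used here.

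**Figure D3:**
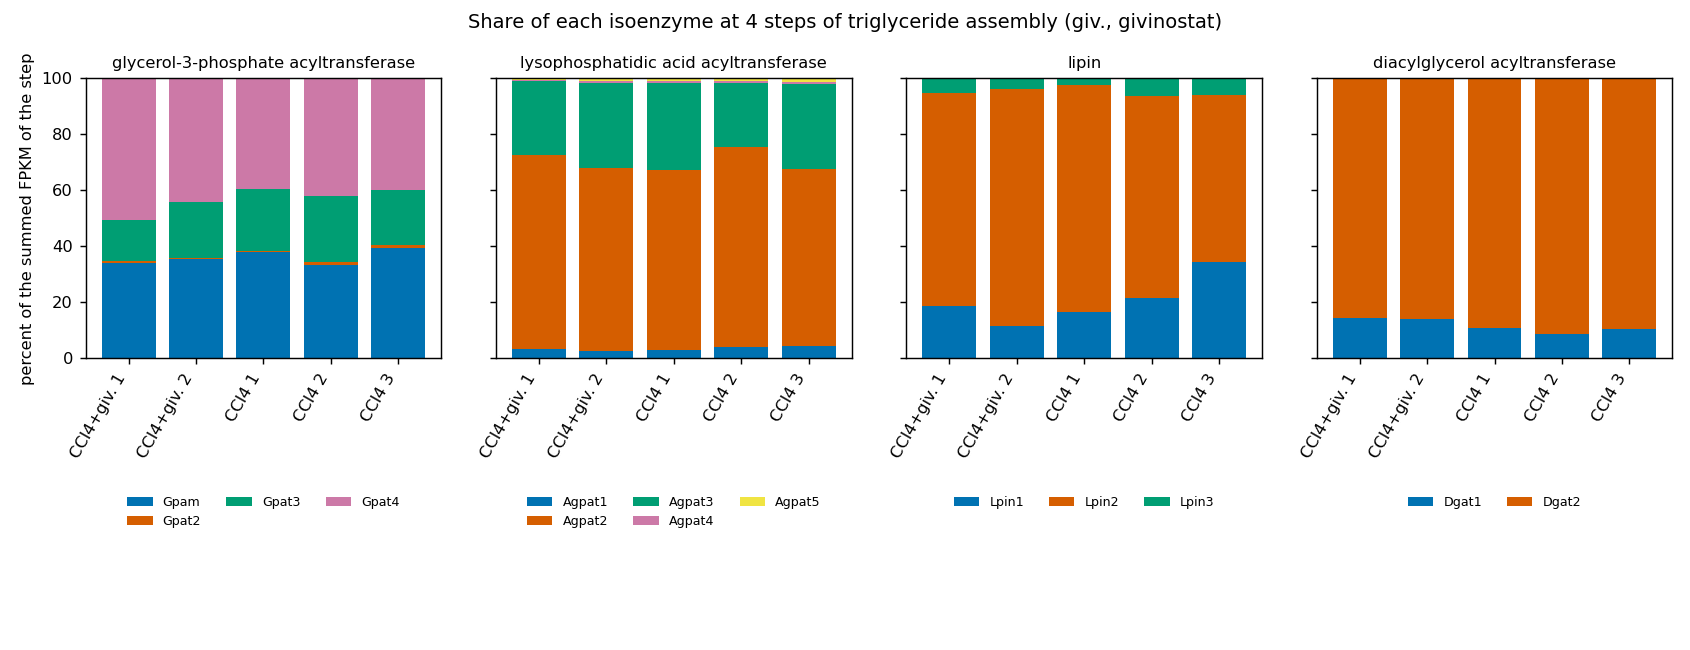
Stacked bars give, for each library, the percent of the summed FPKM at 4 steps of triglyceride assembly that each isoenzyme holds (axis from 0 to 100). Dgat1 holds 14.3 and 14.4% of the DGAT level in the CCl4+givinostat libraries and 8.64 to 11.1% in the CCl4 libraries, while the lipin shares overlap between the groups.

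The monoacylglycerol route was near the limit of detection. Mogat1 (chromosome 1, 78510991 to 78538173, plus strand, GRCm38) had 19 and 9 counts with CCl4+givinostat, against 8, 4 and 7 counts with CCl4, or 0.934 and 0.404 CPM against 0.379, 0.192 and 0.364 CPM. CCl4+givinostat replicate 2 and CCl4 replicate 1 were barely apart. The ratio of pooled, depth-scaled counts was 2.11, with an exact 95% interval of 1.14 to 4.0 for counting error only. A fit with no low-count filter, which takes in the spread between libraries, gave a log2 fold change of 1.08 ± 0.67 (SE), at an adjusted p by edgeR of 0.919. In the annotation 12.8% of the exonic bases of Mogat1 overlap BC035947 on the opposite strand. The log2 ratio of Mogat1 to Gpam differed by 0.67, with an exact two-sided permutation p of 0.4 (0.533 adjusted over the 4 ratios), and by 0.01 without CCl4+givinostat replicate 1.

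Per exon length, the 10 genes spanned more than 2 orders of magnitude. With CCl4+givinostat the order was Agpat2 (103 FPKM), Dgat2 (80.8), Cd36 (53.3), Agpat3 (42.9), Lpin2 (37.5), Gpam (27.1), Dgat1 (13.5), Lpin1 (7.04), Mogat1 (0.429) and Vldlr (0.364 FPKM, group means). With CCl4 it was Agpat2 (86.3 FPKM), Dgat2 (79.6), Agpat3 (35.7), Cd36 (32.4), Lpin2 (32.3), Gpam (21.6), Lpin1 (9.45), Dgat1 (8.90), Mogat1 (0.200) and Vldlr (0.186 FPKM). Cd36 and Agpat3 stood in opposite order in the 2 groups, and so did Dgat1 and Lpin1. Over single libraries Cd36 (48.3 to 58.4 FPKM) lay above Agpat3 (41.7 to 44.1 FPKM) with CCl4+givinostat, whereas with CCl4 they overlapped at 29.5 to 35.7 and 33.4 to 39.2 FPKM. Likewise Dgat1 (12.7 to 14.4 FPKM) lay above Lpin1 (5.55 to 8.53 FPKM) with CCl4+givinostat, whereas with CCl4 they overlapped at 8.19 to 10.1 and 6.53 to 12 FPKM. Agpat2 and Dgat2 also overlapped with CCl4, at 70.3 to 108 and 71.1 to 86.5 FPKM. Lpin2 ran from 17.0 to 57.9 FPKM with CCl4 and so crossed Agpat3, Cd36 and Gpam, the top of that range being CCl4 replicate 1. Mogat1 and Vldlr overlapped in both groups, at 0.259 to 0.599 and 0.322 to 0.406 FPKM with CCl4+givinostat.

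The genes also differed in how steady their levels were among the CCl4 libraries. The coefficient of variation over the CCl4 libraries was 8.60% for Agpat3, 9.60% for Cd36, 9.82% for Dgat2 and 11.7% for Dgat1. It was 22.9% for Agpat2, 28.9% for Lpin1, 29.8% for Gpam, 33.2% for Mogat1, 43.2% for Vldlr and 69% for Lpin2. These values include counting error, which is larger at low counts. Mogat1 had 8, 4 and 7 counts and Vldlr 53, 20 and 41 counts with CCl4, so their values cannot be read as differences between mice alone. Gpam, Lpin1 and Lpin2 were each highest in CCl4 replicate 1 of all 5 libraries. With each library left out, the fitted differences of Gpam, Agpat2, Agpat3, Lpin1, Dgat1, Cd36 and Vldlr kept their sign, and those of Lpin2 and Dgat2 took either sign.

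**Figure D4:**
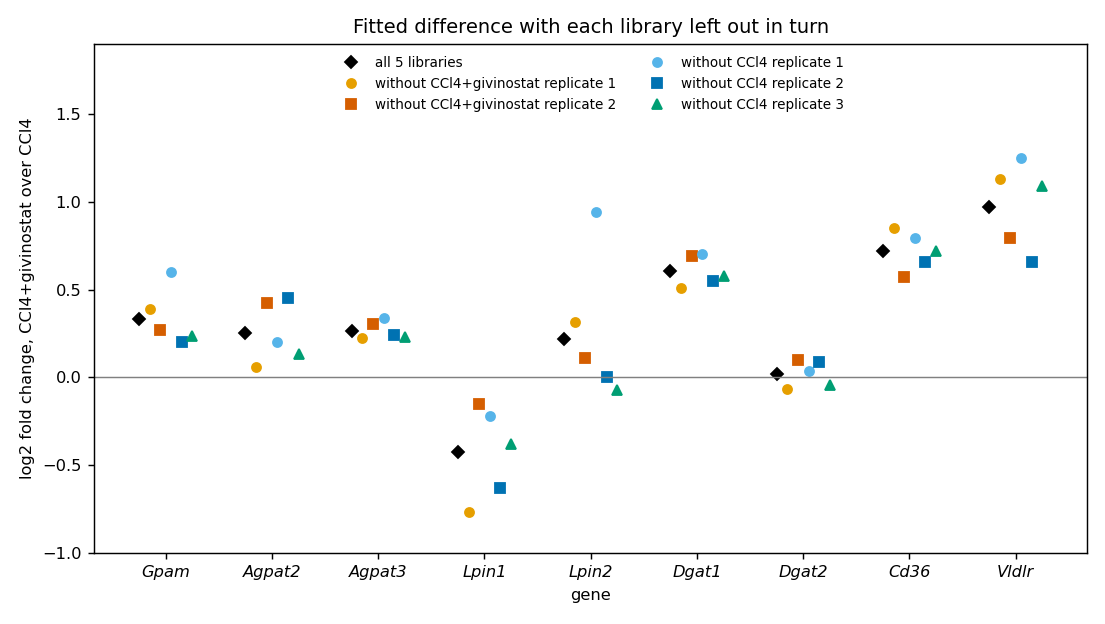
The vertical axis gives the edgeR log2 fold change of CCl4+givinostat over CCl4 for each of the 9 tested genes with all 5 libraries and with each library left out in turn. Lpin2 moves to 0.94 without CCl4 replicate 1 and to -0.07 without CCl4 replicate 3, while Dgat1 stays between 0.51 and 0.70 and Cd36 between 0.57 and 0.85.

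Other glycerolipid genes were read from a list of 26, of which 25 were tested. EdgeR's adjusted test called 0 of them in either direction. Before adjustment, at p under 0.05, 4 were higher and 1 was lower, where 3.52% and 3.93% of all tested genes were, and 13 of the 25 had a fitted value above 0 (median 0.03). DESeq2 called Mgll, the monoacylglycerol lipase gene, with a DESeq2 adjusted p of 0.00950 and an edgeR log2 fold change of 0.61 ± 0.13 (SE). Mgll was at 362 and 357 CPM with CCl4+givinostat, against 226, 235 and 244 CPM with CCl4. Chpt1, which draws diacylglycerol into phosphatidylcholine, and Mttp, which loads lipid onto apolipoprotein B, had log2 fold changes of 0.59 ± 0.15 and 0.45 ± 0.13 (SE). Tm6sf2, a gene of VLDL lipidation, was at 35.3 and 28.5 CPM with CCl4+givinostat, against 42.1, 54.7 and 44.8 CPM with CCl4. These 4 had the smallest edgeR p of the list, with edgeR adjusted p-values of 0.248 to 0.497, and none had overlapping groups. In the list, 6 of the 25 lay higher and 3 lower with no overlap, against 11.7% and 11.7% of all tested genes. Without CCl4 replicate 1, edgeR called Gpat4 of this list higher (0.87, edgeR adjusted p = 0.0212), where 0.885% of all tested genes were.

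Genes of fatty acid uptake, activation and lipoprotein uptake outside the 10 were a list of 30, of which 28 were tested. By the adjusted tests of edgeR and DESeq2, 0 passed. Before adjustment, at p under 0.05 by edgeR, 7 were higher and 3 were lower, beside 3.52% and 3.93% of all tested genes, and 14 of the 28 had a fitted value above 0 (median 0.02). Acsl1 and Acsl3, which activate fatty acids to acyl-CoA, lay on opposite sides. Acsl1 was at 1368 and 1502 CPM with CCl4+givinostat, against 743, 890 and 1047 CPM with CCl4 (log2 fold change 0.68 ± 0.18, SE), while Acsl3 was at 15.5 and 14.9 CPM with CCl4+givinostat, against 24.8, 24.4 and 22.5 CPM with CCl4 (log2 fold change -0.65 ± 0.16, SE). Fabp2, a fatty acid binding protein gene, was at 106 and 80.0 CPM with CCl4+givinostat, against 52.9, 45.6 and 63.7 CPM with CCl4. Without CCl4 replicate 1, edgeR called Fabp5 and Angptl8 lower, where 0.862% of all tested genes were. With all libraries their edgeR adjusted p-values were 0.689 and 0.493. Fabp5 was at 10.5 and 12.1 CPM with CCl4+givinostat, against 7.87, 32.0 and 44.6 CPM with CCl4. CCl4 replicate 1, the first of these CCl4 values, lay below both CCl4+givinostat libraries. Angptl8 was at 58.5 and 51.6 CPM with CCl4+givinostat, against 68.5, 312 and 150 CPM with CCl4.

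Of 21 transcription regulators known to act on such genes, 0 passed edgeR's adjusted test and 0 passed DESeq2, while before adjustment 1 was higher and 3 were lower at p under 0.05 (3.52% and 3.93% of all tested genes). The median log2 fold change was -0.05, with 9 of the 21 above 0. Ppara, the nuclear receptor of fatty acid catabolism, was at 247 and 242 CPM with CCl4+givinostat, against 225, 160 and 130 CPM with CCl4 (log2 fold change 0.51 ± 0.22, SE). EdgeR called Ppara higher without CCl4 replicate 1 (0.75, edgeR adjusted p = 0.0387), where 0.885% of all tested genes were. Srebf1, Ahr and Cebpb had log2 fold changes of -0.60, -0.69 and -0.38, at edgeR adjusted p-values of 0.413, 0.446 and 0.614. Both CCl4+givinostat libraries lay below all CCl4 libraries for each. These genes and Ppara had the smallest edgeR p of the list. Of the 21 regulators, 2 lay higher and 4 lower with no overlap, against 11.7% and 11.7% of all tested genes.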

How the data were processed

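Total RNA taken from liver with Trizol was made into Illumina TruSeq libraries, per the labels' protocols. The deposited values are raw read counts per gene symbol, 1 table of 24834 rows per library, as the whole numbers and differing totals show. Bowtie 0.12.2 and the builds mm8 and mm10 appear in the submitters' processing notes. Which counter, annotation and strand setting were used is not given in the sources used here. Dates stood in place of symbols in 26 rows of each library's file, which held 0.144 to 0.169% of counts and were left out.

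The members and gene lists were chosen with earlier results of these data known. Counts were fitted in R 4.3.3 with edgeR 4.0.16 (filterByExpr, TMM, quasi-likelihood test, treatment as the only term, 3 residual degrees of freedom) over 13590 genes. DESeq2 1.42.0 was run on the same genes. The SE of a fold change was taken as its size on the log2 scale over the square root of F. A count of 3, which a count of 0 allows, was 0.135 to 0.156 CPM. Gene positions and exon lengths are from GENCODE M21 on GRCm38 (mm10). Every pair of libraries differed by more than sampling noise. Named genes are the 10 members, up to 4 genes of smallest p per pathway list, and at most 3 defining genes per marker list. Gpat4, Fabp5, Angptl8 and further marker genes were named after their values were seen. One gene that the rule names in the uptake list is not reported here. Of the marker lists not described with the results, hepatocyte genes summed to 102300 and 110200 CPM in the CCl4+givinostat libraries and 99430 to 109100 CPM in the CCl4 libraries, and stellate cell genes to 506 and 533 CPM against 459 to 528 CPM. Mesothelial genes summed to 2.38 and 3.19 CPM with CCl4+givinostat, against 9.05 to 21.9 CPM with CCl4, and acinar genes to 5.84 and 9.43 CPM against 5.21 to 7.27 CPM. Of 8 tested mesothelial genes, 8 had a fitted value below 0 and 7 lay lower with no overlap, against 11.7% of all tested genes. DESeq2 called 6 of the 8 lower, against 0.581% of all tested genes, and edgeR's adjusted test called 0. Whether this bears on the member values was not tested.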

Additional observations from a re-analysis of the deposited data

How the results depend on the processing

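The number of genes called by edgeR over all genes was 1, and it was 38 with no low-count filter, 0 with a stricter low-count filter (10 counts in all libraries of 1 group), 145 with the replicate number as a block, 3 at an adjusted p of 0.1, and 0 to 235 with each library left out, the 235 being without CCl4 replicate 1. DESeq2 called 148. Among the members the count was 0, against 1 by DESeq2 and 0 to 3 with each library left out. Among the other pathway genes it was 0, against 1 by DESeq2, 2 with the replicate block (Slc27a1 higher, Angptl8 lower) and 0 to 5 with each library left out. The count of members higher with no overlap between groups was 4 with all libraries and 4 to 6 with each library left out, tried after the data were seen. It was 6 without CCl4 replicate 1, where 24.3% of all tested genes did not overlap in that direction. That share was 11.7% with all libraries and 15.7 to 24.4% with each left out. In the other direction, 1 member was lower with no overlap without CCl4 replicate 2, and 1 without CCl4+givinostat replicate 1. The share of all tested genes lower with no overlap was not computed for either setting, so neither count is read as a result. Where 1 library was left in a group, it was assumed to vary like the others.

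The replicate numbers are shared by both groups but nothing says that they pair mice. Deviations from the group means correlated at -0.15 for number 1 and -0.08 for number 2. The deviations of both CCl4+givinostat libraries mirror each other, so these correlations cannot decide whether the numbers pair mice. The block is given here only. With it the log2 fold change was 0.71 for Cd36, 0.57 for Dgat1 and -0.056 for Dgat2, the last reversed, and no member was called. CCl4 replicate 3 is alone in its block and adds nothing to these fitted differences, so they rest on the other libraries. Dgat2 ranged from -0.064 to 0.10 and Lpin2 from -0.074 to 0.94 with each library left out, both changing sign. The log2 ratio of Agpat2 to Agpat3 differed by -0.002 with all libraries and by -0.15 to 0.20 with single libraries left out. Of 90 values of the 9 tested members under the alternatives, 82 kept their direction and side of the threshold, 4 reversed and 4 became calls. The limit of detection follows depth, and Mogat1, with 4 to 19 counts a library, was the only member below the low-count filter.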
